A study of Mus musculus with 4 samples.

Results

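Foxp3 encodes the transcription factor that sets the identity of regulatory T (Treg) cells, and its locus was examined here as 1 gene of the 21888 whose spans were counted. Open chromatin at and around the gene was measured in each T cell label of 2 tissues. The T cells came from AKP tumors and from neighbouring cecum without tumor, both taken when 4 weeks had passed since the transplant. AKP tumors grow from mouse colorectal cancer organoids that carry engineered cancer mutations, Apc-/- and Trp53-/- among them, placed in the wall of the cecum. Nuclei went through the 10x multiome assay, which reads RNA and transposase-accessible DNA (ATAC) from the same nucleus, with 1 ATAC library per tissue. The host genotype and the number of mice behind each library are not given in the sources used here, and tissue and library cannot be told apart.

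Foxp3 transcription is kept on in Treg cells by a promoter and by conserved non-coding sequences (CNS) around it. CNS1 and CNS2 lie in the intron before the coding exons, CNS3 lies further into the gene, and CNS0 lies upstream within the neighbouring gene Ppp1r3f. CNS1 is known for Treg cells induced outside the thymus, CNS2 for keeping Foxp3 on as Treg cells divide, and CNS3 and CNS0 for starting Foxp3 expression. CNS2 loses its DNA methylation in stable Treg cells and not in conventional T cells. Flicr, a long non-coding RNA gene that overlaps the Foxp3 start, is known to restrain Foxp3 expression.

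The cecum library held 66466111 fragments and the tumor library 96747563. Labels had been given to 7155 cecum and 8466 tumor cells in 17 cell types, with a median of 4374 and 5846 fragments per labelled cell. Both libraries held 84 of the same labelled barcodes, a number equal to 0.538% of the 15621 labelled cells. Of the labels, 2 are Treg cells, IL-10+ (996 cecum and 387 tumor cells) and IL-10- (424 and 737 cells), and 15 are other T cells, 7 of them CD4+. Fragments with an end in a window were added up over all cells with the same label and are given per 1000000 fragments of that label (FPM). Ranges in parentheses are exact 95% intervals, which cover counting error only, and without replicate libraries no test was made. The share of fragments on chromosome X ran from 1.5% to 1.67% over the cecum labels and from 1.51% to 1.69% over the tumor labels. Over gene spans with 5 kb on each side, Lrrc32, which encodes the TGF-β docking receptor GARP, was also above every other label in both Treg labels of both libraries. The spans of Il2ra, Ctla4, Ikzf2, Ikzf4, Tnfrsf18 and Icos were not, and that of Tnfrsf4 was so only in the tumor. The CD8 genes Cd8a and Cd8b1 together had 16.1 FPM in cecum Treg cells against 81.5 in the other labels, and 17.0 against 88.3 in the tumor.

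The mouse gene lies on the plus strand of chromosome X, from 7579676 to 7595243 in GRCm38. RefSeq gives it 2 promoters, at chrX:7579426-7579725 and chrX:7580233-7580532. They are shown because the first sits on one of the peaks that set Treg cells apart and the second lies a little downstream of it, at a lower level. Capitals mark the matches to 10 short motifs searched on both strands.
Promoter 1: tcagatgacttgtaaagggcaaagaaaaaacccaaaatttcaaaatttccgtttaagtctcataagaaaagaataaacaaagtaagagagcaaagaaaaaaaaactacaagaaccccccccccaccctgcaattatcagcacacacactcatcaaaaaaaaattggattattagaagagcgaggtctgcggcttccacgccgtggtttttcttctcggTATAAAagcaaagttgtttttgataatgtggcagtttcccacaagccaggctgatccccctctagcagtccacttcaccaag
Promoter 2: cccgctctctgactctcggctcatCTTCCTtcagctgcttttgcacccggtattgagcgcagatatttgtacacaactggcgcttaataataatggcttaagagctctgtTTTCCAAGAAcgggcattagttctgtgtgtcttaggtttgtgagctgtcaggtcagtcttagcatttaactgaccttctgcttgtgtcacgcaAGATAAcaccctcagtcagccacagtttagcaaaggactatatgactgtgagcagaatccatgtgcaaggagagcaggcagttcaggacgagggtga
Promoter 1 held 1 match, the TATA motif TATAAA starting at -32 from its transcription start, a motif found in 13.6% of the 32851 mouse promoters of the same length. Promoter 2 held an ETS motif (AGGAAG, on the minus strand at -226, in 35.4% of promoters), a STAT motif (TTCNNNGAA, at -139, in 8.30%) and a GATA motif (AGATAA, at -47, in 11.2%). It also held an NFAT motif (TGGAAA, on the minus strand at -140, in 21.4%), whose letters overlap those of the STAT match. No match was found in either window for FOX (TGTTTAC), RUNX (TGTGGT), CRE (TGACG), AP-1 (TGANTCA) or SP/KLF (GGGCGG), which occur in 3.65%, 16.8%, 20.8%, 7.81% and 35.7% of promoters. These are matches of letters and not measured sites. GC content was 40.7% in promoter 1 and 47.7% in promoter 2, against a median of 52.7% over all promoters. Promoter 1 had 9.76 FPM in cecum Treg cells and 1.73 in the other labels, and 7.97 against 1.83 in the tumor. Promoter 2 had 2.07 against 0.14 FPM in the cecum and 1.76 against 0.09 in the tumor, where 5 fragments of other labels reached it in each library. The log2 ratios of Treg over other labels were 2.50 (2.0 to 3.0) and 2.12 (1.66 to 2.58) for promoter 1 and 3.87 (2.38 to 5.65) and 4.24 (2.7 to 6.05) for promoter 2.

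Over the gene with 5 kb on each side, both Treg labels stood above every other T cell label in both tissues. In the cecum, IL-10+ Treg cells had 101.8 FPM (93.7 to 110.4) and IL-10- Treg cells 97.3 (86.5 to 109.1). The next label, CCR7+ CD4 cells, had 45.3 FPM (34.0 to 59.1), and the lowest, Innate-like T#1 cells, had 21.7. In the tumor, IL-10+ Treg cells had 79.2 FPM (69.0 to 90.5) and IL-10- Treg cells 76.0 (69.0 to 83.4), followed by Tfh-like cells with 46.4 (30.3 to 67.9). The lowest tumor label was Innate-like T#2 at 17.2 FPM. Of the 16 neighbouring pairs in the order of levels, only the step from the lower Treg label to the highest other label had an interval without 0, in each library. The order among the 15 other labels is therefore not resolved step by step. In the cecum, the PD1+ CD4 label held 14 cells and its value of 44.9 FPM rests on 4 fragments.

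**Figure D1:**
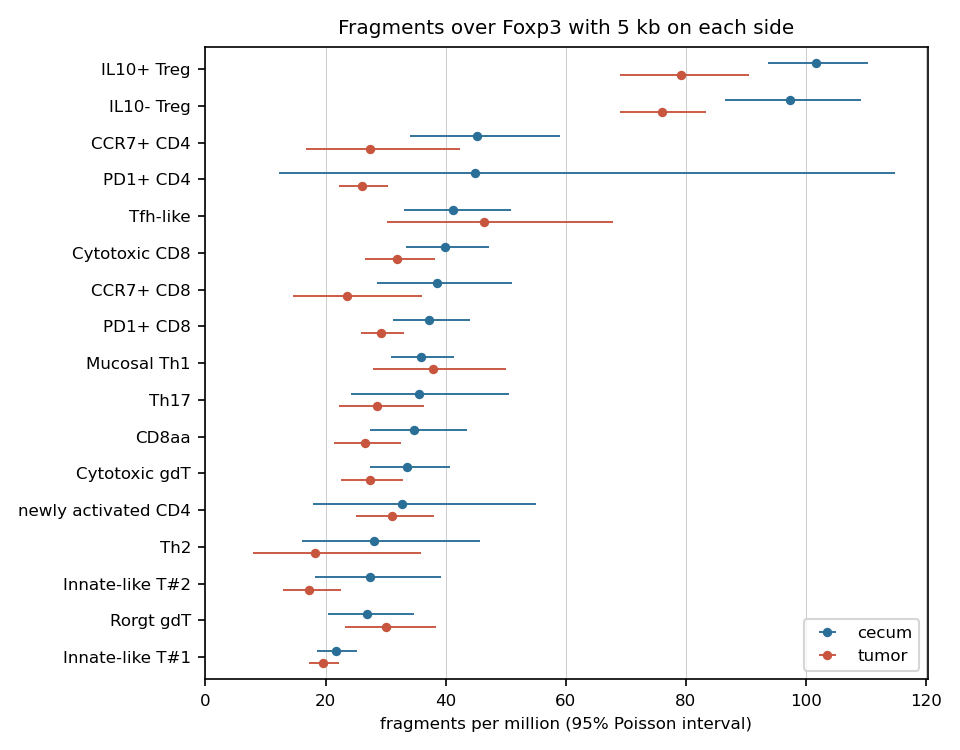
Fragments per 1000000 over Foxp3 with 5 kb on each side, for each label (rows) in the cecum and tumor libraries, with exact 95% Poisson intervals as bars. The 2 Treg labels lie at 97.3 and 101.8 in the cecum and at 76.0 and 79.2 in the tumor, above all other labels.

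Treg cells together had 100.2 FPM over this window in the cecum against 32.7 in the other labels, a log2 ratio of 1.62 (1.49 to 1.75). In the tumor they had 77.0 against 26.1, a log2 ratio of 1.56 (1.42 to 1.69). The outermost upstream kilobase of this window, from 5 to 4 kb before the start, takes in part of the shared open chromatin at the starts of Ppp1r3f and Flicr. That kilobase held 76.0% (cecum) and 71.6% (tumor) of the other labels' window fragments, but 31.8% and 35.3% of those of Treg cells. Without it, the Treg level was 68.5 FPM against 7.85 in the cecum (log2 ratio 3.13) and 49.9 against 7.48 in the tumor (2.74). The shorter window was chosen after these values were seen. Over the gene span alone, Treg cells had 59.5 FPM against 5.16 in the cecum and 43.1 against 4.68 in the tumor, log2 ratios of 3.53 (3.28 to 3.78) and 3.20 (2.97 to 3.44).

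Within 50 kb of the gene, 232 tiles of 500 bp were counted. A tile was called open at 3 FPM or more, Treg-restricted where both Treg labels were open and Treg cells together had at least 4 times the FPM of the other labels together in both libraries, and shared where both sides were open with a ratio under 2 in both. Treg cells were open in 22 tiles, of which 5 were Treg-restricted, 7 shared and 10 neither. Over all 5444921 tiles of the genome, 1.12% were open in Treg cells, 0.0131% were Treg-restricted and 0.92% shared. Among the tiles open in Treg cells genome-wide, 1.17% were Treg-restricted and 81.8% shared. Treg cells exceeded the other labels in both libraries in 21 of the 22. These tiles were picked for their Treg level, which favours such an excess, and the genome-wide share with it was not counted. The other labels were open in 10 tiles, and in 1 of them Treg cells were not.

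**Figure D2:**
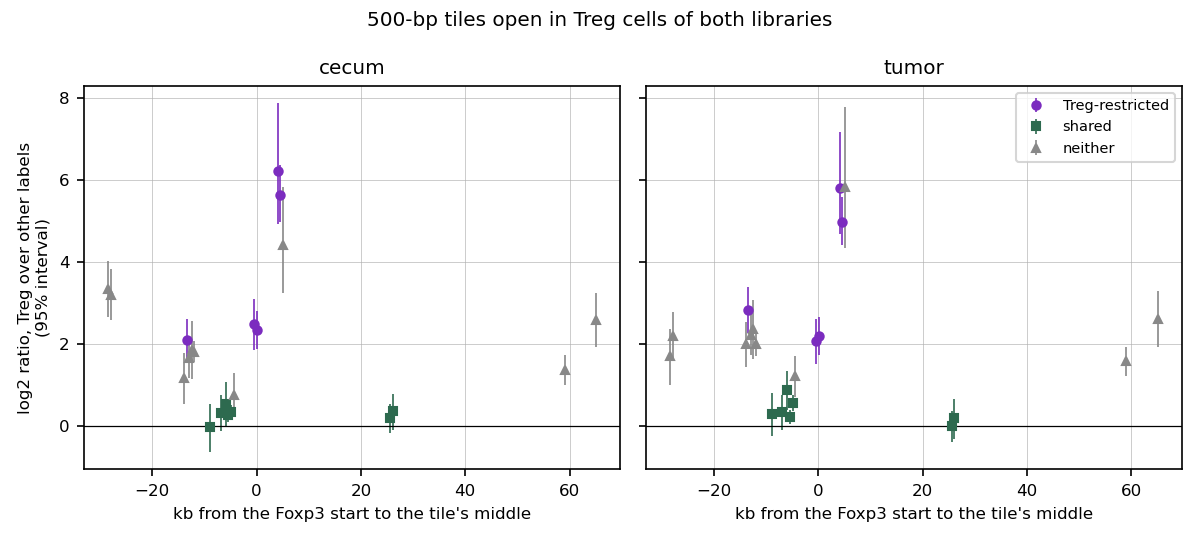
Log2 ratio of Treg cells over the 15 other labels for the 22 tiles that were open in Treg cells of both libraries, against the distance of the tile's middle from the Foxp3 start in kb, with exact 95% intervals. The tiles at 4.07 and 4.57 kb have the highest ratios of the restricted class (circles) and the shared tiles (squares) lie near 0.

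The 5 Treg-restricted tiles fell in 3 places, and there were 9 such tiles at a fold of 2, 2 at a fold of 8 and 3 with fragments below nucleosome length (short fragments) alone. Tiles at 7583501 to 7584000 and 7584001 to 7584500 are adjacent within the gene and cover CNS2. Tiles at 7579001 to 7579500 and 7579501 to 7580000 are adjacent over the Foxp3 start. The fifth, at 7566001 to 7566500, lies in Ppp1r3f. Ranked over the 50122 tiles of the genome that were open in both Treg labels of both libraries, by the smaller of the 2 library ratios of Treg over other labels, the CNS2 tiles took ranks 1 (55.6-fold) and 4 (31.4-fold). The start tiles took ranks 529 (4.60-fold) and 638 (4.22-fold) and the Ppp1r3f tile rank 610 (4.30-fold). Just outside the class were the tiles at 7567501 (3.51-fold) and 7566501 (3.14-fold), and the tile at 7584501 next to CNS2, which had 2.0 FPM in cecum IL-10- Treg cells. Not all 5 tiles were particular to the Treg labels one by one. The start and CNS2 tiles were above each other label with at least 50 cells in both libraries. In the Ppp1r3f tile Th2 cells reached 10.5 FPM in the cecum, above both Treg labels (5.67 and 8.93). The Th2 label held 90 cells there, and this order was not tested. Of 14 such labels in the cecum, 4 were above the lower Treg label in that tile and 5 reached 3 FPM. In the tumor it was 1 and 4 of 15.

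CNS2 is known for keeping Foxp3 on in dividing Treg cells. Among the promoter and CNS windows it had the highest ratio of Treg over other labels in both libraries. In the cecum its interval lay within that of CNS1 (log2 ratio 2.83 to 7.01), so their order is not resolved there. The CNS2 window ran from 4.2 to 4.8 kb after the start (7583876 to 7584475). There, cecum IL-10+ Treg cells had 31.5 FPM (27.1 to 36.5) and those of the tumor 21.6 (16.5 to 27.9). IL-10- Treg cells had 29.3 FPM (23.5 to 36.1) and 19.5 (16.0 to 23.4), in the same order. The other labels together had 0.57 FPM from 20 fragments in the cecum and 0.62 from 33 in the tumor. Treg cells exceeded them 54.3-fold in the cecum (log2 ratio 5.76, 5.11 to 6.50) and 32.7-fold in the tumor (5.03, 4.49 to 5.62). Over the other labels with at least 50 cells, the highest upper limit of an interval was 16.9 FPM in the cecum and 12.9 in the tumor, below the lower limits of both Treg labels. Of these labels, 4 in the cecum and 6 in the tumor had no fragment there. The highest were newly activated CD4 cells at 4.69 FPM in the cecum and Tfh-like cells at 3.57 in the tumor, each from 2 fragments. Th2 cells had none in either library, where a count of 0 over the whole CNS2 peak (3.83 to 5.32 kb), taken as at most 3 counts, allows up to 5.27 FPM in the cecum and 6.83 in the tumor. Among the other labels, CD4+ cells had more than cells that are not CD4+, 1.14 against 0.32 FPM in the cecum (log2 ratio 1.81, 0.40 to 3.31) and 1.24 against 0.38 in the tumor (1.69, 0.62 to 2.78). Against the CD4+ labels alone, the log2 ratio of Treg cells at CNS2 was 4.76 (3.93 to 5.73) in cecum and 4.02 (3.32 to 4.81) in tumor. Whether misassigned Treg cells or doublets contribute to these few fragments was not tested.

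Cell by cell, a fragment in the CNS2 window was found in 13.9% of cecum IL-10+ Treg cells (138 of 996, 11.8% to 16.2%) and 16.3% of IL-10- Treg cells (69 of 424, 12.9% to 20.1%). Among the 5735 other cecum cells the share was 0.296% (17 cells, 0.173% to 0.474%). The median depths of these groups were 4083, 5635 and 4368 fragments per cell. In the tumor the shares were 13.2%, 12.5% and 0.381%. At an equal depth of 2000 fragments per cell, the expected shares were 5.68%, 5.55% and 0.0978% for cecum cells and 4.60%, 3.37% and 0.10% for tumor cells. Cells below that depth were left out of these shares, 284, 108 and 1676 cecum cells and 70, 125 and 1517 tumor cells in the same order of labels.

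The promoter window, from -0.5 to 0.2 kb, had more signal in Treg cells than in the other labels, which ranged from no fragment to 5.90 FPM. IL-10+ and IL-10- Treg cells of the cecum had 12.1 and 11.7 FPM there, and those of the tumor 8.43 and 10.3. The other labels together had 2.32 and 2.30 FPM, so the cecum log2 ratio was 2.36 (1.93 to 2.80) and the tumor one 2.08 (1.66 to 2.50). As a mean over cells the cecum ratio was 3.10, and with short fragments alone 1.78. Every other label with at least 50 cells lay below both Treg labels. Cytotoxic CD8 cells were the highest in the cecum at 5.90 FPM (3.61 to 9.12) and Cytotoxic gdT cells in the tumor at 5.01 (3.10 to 7.66). Unlike at CNS2, intervals overlapped. The highest upper limit of these labels was 9.80 FPM in the cecum and 8.40 in the tumor. The lowest lower limit of a Treg label was 8.12 and 5.34. Of these labels, 2 in the cecum and 4 in the tumor had no fragment in the window. Over the start region (7579001 to 7580000), 5 of 14 in the cecum and 3 of 15 in the tumor reached 3 FPM. In contrast to CNS2, the promoter signal outside the Treg labels was lower in CD4+ than in other cells, 1.52 against 2.67 FPM in the cecum (log2 ratio -0.82, -1.70 to -0.01) and 1.45 against 2.61 in the tumor (-0.85, -1.60 to -0.16). The excess of Treg cells was thus larger against other CD4+ labels, with log2 ratios of 2.98 and 2.75.

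**Figure D3:**
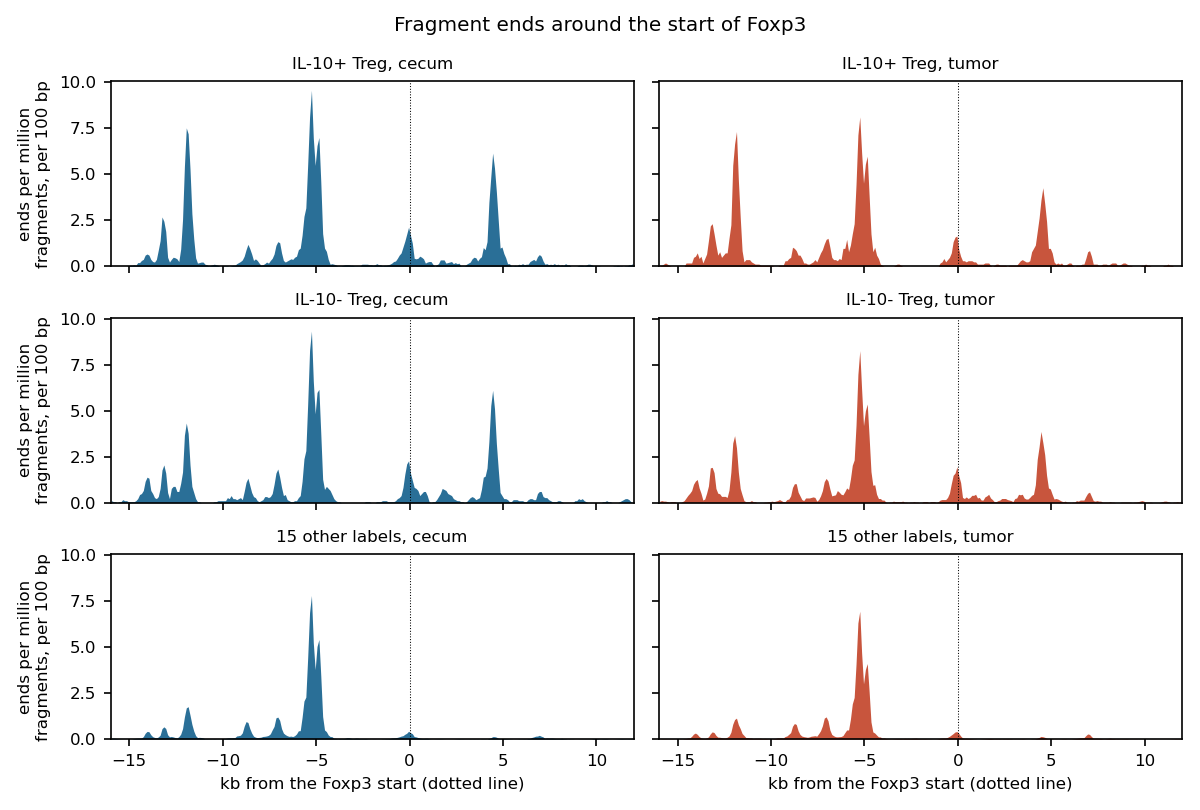
fragment ends per 1000000 fragments in 100-bp bins around the Foxp3 start (dotted line), smoothed over 3 bins, for IL-10+ Treg cells, IL-10- Treg cells and the 15 other labels together in the cecum (left) and tumor (right). The peak at 4.35 kb, CNS2, is tall in both Treg labels and near 0 in the other cells. The peak at -5.30 kb stands out in all rows, and its region is somewhat higher in Treg cells (log2 ratios 0.38 and 0.39).

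The other fixed elements carried less signal. CNS1, from 2.0 to 2.7 kb, had 2.07 FPM in cecum Treg cells (18 fragments) and 1.17 in tumor Treg cells (10 fragments), against 0.09 and 0.19 in the other labels. Its log2 ratios were 4.60 (2.83 to 7.01), with 3 fragments of other labels, and 2.65 (1.23 to 4.07). CNS3, from 6.8 to 7.3 kb, had 2.76 against 0.96 FPM in the cecum (log2 ratio 1.52, 0.70 to 2.31) and 2.46 against 1.12 in the tumor (1.14, 0.34 to 1.87). Treg cells together were under 3 FPM at both. By label, tumor IL-10+ Treg cells had 3.30 FPM at CNS3, and tumor CCR7+ CD4 cells had 5.48 from 4 fragments, above both Treg labels. The upstream window from -9.0 to -7.5 kb, placed for CNS0 from general knowledge of its position, was not checked against a source, so whether its values are those of CNS0 is not known. It was nearly as open outside the Treg labels as within them. It had 7.58 against 5.59 FPM in the cecum and 7.27 against 5.34 in the tumor, a log2 ratio of 0.44 (0.02 to 0.85) in each library. Th17 cells had the highest value there in the cecum (16.1 FPM), and CCR7+ CD8 cells in the tumor (9.01).

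Further upstream, within Ppp1r3f, a cluster of peaks from -14.2 to -11.7 kb (7565501 to 7568000) was open in Treg cells and in several other labels. Its tallest peak in Treg cells lay at -12.0 kb. Treg cells together had 44.3 FPM in the cecum and 36.8 in the tumor against 12.8 and 8.42 in the other labels, log2 ratios of 1.79 (1.59 to 1.99) and 2.13 (1.92 to 2.34). The highest value in both libraries was that of Th2 cells, with 56.3 FPM (38.5 to 79.4) in cecum and 66.1 (44.2 to 94.9) in tumor. Against Treg cells together, the Th2 log2 ratio was 0.34 (-0.22 to 0.87) in cecum and 0.84 (0.24 to 1.40) in tumor. Against IL-10+ Treg cells, the higher Treg label, it was 0.20 (-0.37 to 0.73) and 0.43 (-0.20 to 1.02), so the order of these 2 labels is not resolved in either library. Th17 cells had 45.9 and 25.2 FPM and Rorgt gdT cells 38.4 and 33.9. CCR7+ CD8 cells had 26.0 and 10.1 FPM and CCR7+ CD4 cells 21.8 and 16.4, while PD1+ CD8 cells had the lowest values, 2.50 and 2.40. The cluster thus spanned a wide range of levels within each library. Of the labels other than Treg with at least 50 cells, 13 of 14 in the cecum and 14 of 15 in the tumor reached 3 FPM over the 2500 bp of the cluster. Th2 cells, with the highest value in this cluster, had no fragment in the CNS2 peak. IL-10+ Treg cells exceeded IL-10- Treg cells in the cluster, 48.9 against 35.7 FPM in the cecum (log2 ratio 0.45, 0.13 to 0.79) and 49.1 against 31.0 in the tumor (0.66, 0.33 to 0.99).

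**Figure D4:**
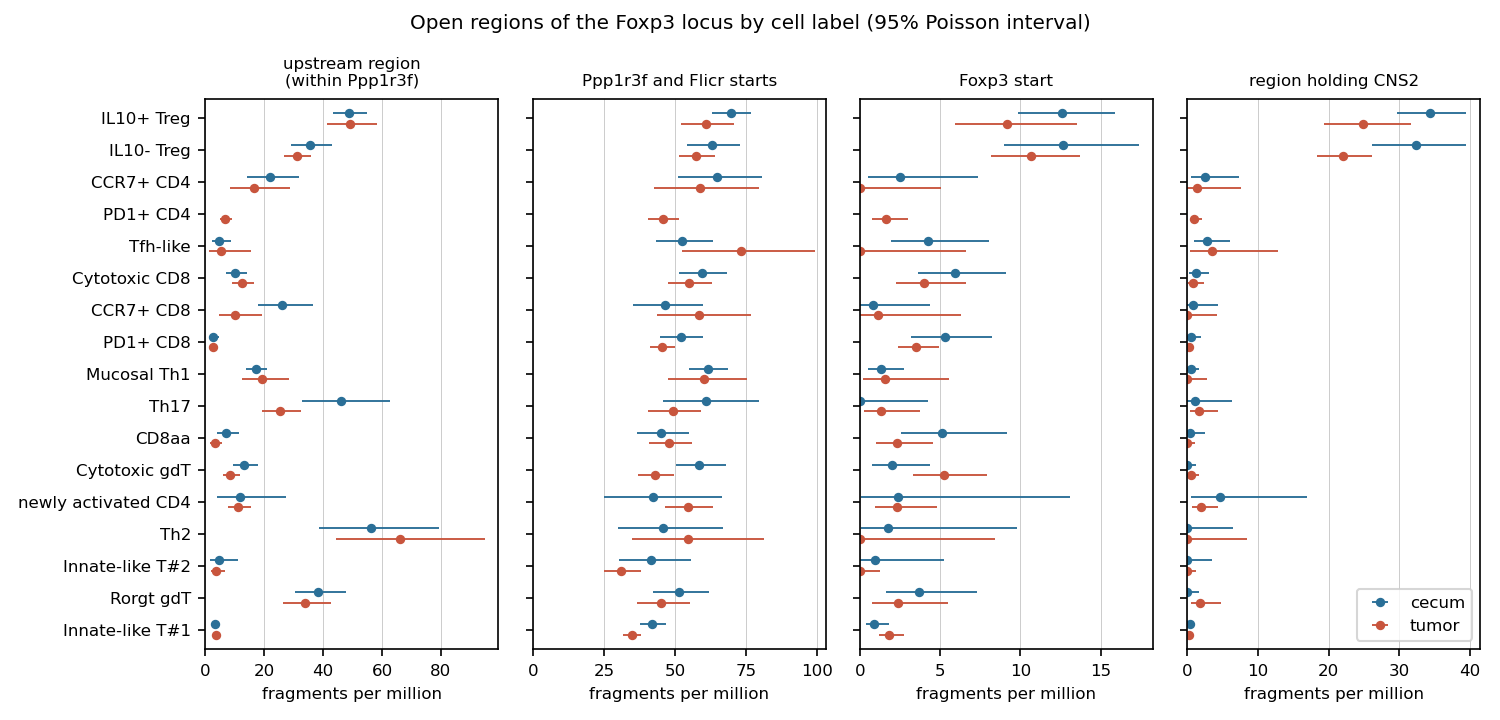
Fragments per 1000000 in 4 open regions of the locus for each label, in the cecum and tumor, with exact 95% Poisson intervals; PD1+ CD4 cells of the cecum (14 cells) are left out. The region within Ppp1r3f is highest in Th2 cells (56.3 and 66.1), the Ppp1r3f and Flicr starts have 31.2 or more in all labels shown, and the start of Foxp3 and the CNS2 region are highest in the 2 Treg labels.

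Other open regions near the gene also differed between the Treg labels. A region from -28.7 to -27.7 kb (7551001 to 7552000), in no annotated gene, had 14.2 FPM in cecum IL-10+ Treg cells against 5.67 in IL-10- Treg cells (log2 ratio 1.32, 0.56 to 2.17). In the tumor it had 11.4 against 2.76 (2.04, 1.13 to 3.01). Th17 cells, at 12.6 and 10.3 FPM, were near the IL-10+ Treg level, and Rorgt gdT cells had 6.01 and 6.12, while Th2 cells had no fragment there. Set to 3 counts, this would be 5.27 and 6.83 FPM, and the exact upper limits are 6.49 and 8.40. The order of Th2 and IL-10- Treg cells is thus not resolved there. A tile in Syp, the gene of the synaptic vesicle protein synaptophysin, at 7644501 to 7645000, had 8.06 against 1.33 FPM in the cecum and 9.90 against 2.07 in the tumor. The IL-10+ label thus stood above the IL-10- label by log2 ratios of 2.60 (1.14 to 4.53) and 2.26 (1.23 to 3.38). These regions lie outside the gene and its 5-kb flanks. Within the gene the subsets were close, and over its span the IL-10+ label differed from the IL-10- label by log2 ratios of -0.04 (-0.31 to 0.22) in cecum and 0.02 (-0.30 to 0.35) in tumor. At CNS2 they were 0.10 (-0.27 to 0.49) and 0.15 (-0.33 to 0.62), intervals that leave room for a difference of about 1.5-fold.

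Shared open regions included the starts of neighbouring genes. At the starts of Ppp1r3f, which encodes a regulatory subunit of protein phosphatase 1, and Flicr (7573501 to 7575500), Treg cells had 67.3 FPM in the cecum and 58.5 in the tumor against 51.9 and 44.6 in the other labels. The log2 ratios of this region were 0.38 (0.24 to 0.51) and 0.39 (0.25 to 0.53). All labels with at least 50 cells had more than 3 FPM over its 2000 bp, from 41.5 to 64.5 FPM among the other labels of the cecum and from 31.2 to 73.1 in the tumor. In its first tile alone, 7 of 14 other labels in the cecum and 10 of 15 in the tumor reached 3 FPM, and the lower cecum Treg label had 2.33. At the start of Ccdc22, a gene of an endosomal sorting complex that overlaps the 3′ end of Foxp3 on the other strand, all those labels also had more than 3 FPM over 1000 bp (7605001 to 7606000). In its second tile alone, 12 of the 14 other labels in the cecum and 11 of 15 in the tumor reached 3 FPM. The Treg level was 12.7 FPM against 10.3 in the cecum and 10.5 against 9.93 in the tumor. Smaller shared tiles lay at 7570501, with 3.79 against 3.86 FPM in the cecum and 4.45 against 3.6 in the tumor, and at 7572501, with 6.66 against 5.30 and 6.45 against 5.08. At the first of them, 10 of 14 other labels in the cecum and 11 of 15 in the tumor reached 3 FPM. The tile over the start of Syp (7638501 to 7639000) was not shared, with 11.8 FPM in Treg cells against 4.59 in the cecum (log2 ratio 1.36, 0.99 to 1.73) and 12.5 against 4.2 in the tumor (1.58, 1.23 to 1.92). Tfh-like cells had 11.7 FPM there in the cecum, and the highest other label of the tumor was PD1+ CD8 at 6.78. A tile in Cacna1f, a calcium channel gene, at 7618001 to 7618500, was lower in Treg cells, with 3.90 against 8.08 FPM in the cecum (log2 ratio -1.05, -1.61 to -0.53) and 2.34 against 5.11 in the tumor (-1.13, -1.86 to -0.47). Over whole gene spans, the log2 ratio of Treg over other labels in the cecum and tumor was 1.03 and 1.05 for Ppp1r3f, 0.60 and 0.59 for Flicr, 0.45 and 0.25 for Ccdc22 and -0.34 and -0.55 for Cacna1f. Syp had 0.43 and 0.41 over the part of its span that was counted, which leaves out its far end.

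Between tissues, the Foxp3 locus was less open in tumor Treg cells at CNS2. The CNS2 level of IL-10+ Treg cells was lower in the tumor by a log2 ratio of -0.54 (-0.99 to -0.11), and that of IL-10- Treg cells by -0.59 (-1.01 to -0.17). At the promoter the log2 ratio for Treg cells together was -0.30 (-0.73 to 0.13), and in the CNS0 window -0.06 (-0.58 to 0.46). Over the gene with 5 kb on each side it was -0.38 (-0.53 to -0.23) in Treg cells and -0.32 (-0.44 to -0.21) in the other labels, and over the gene span alone -0.46 (-0.66 to -0.27) in Treg cells and -0.14 (-0.42 to 0.14) in the other labels. The shared Ppp1r3f and Flicr starts were lower in the tumor in the other labels, by -0.22 (-0.31 to -0.13), and in Treg cells together, by -0.20 (-0.38 to -0.03). Taken singly, IL-10+ Treg cells had -0.19 (-0.46 to 0.07) and the IL-10- label -0.13 (-0.40 to 0.13), intervals that include 0. Over the 5-kb window, 11 of the 14 other labels with at least 50 cells in both libraries were lower in the tumor, but 1 of the 14 had an interval without 0. The share of fragments near gene ends, a measure of how far fragments gather in open chromatin, was 44.6% in cecum and 42.5% in tumor Treg cells, and its part in the difference was not tested. In the upstream cluster within Ppp1r3f the log2 ratio was 0.01 (-0.30 to 0.31) in IL-10+ Treg cells, -0.20 (-0.55 to 0.16) in IL-10- Treg cells and -0.60 (-0.79 to -0.41) in the other labels. For Treg cells together it was -0.27 (-0.49 to -0.05) there. Values pooled over labels, those of the other labels among them, also carry the different mix of labels in each tissue.

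Part of the genes that Treg cells are known to use were more open in them. The list of 25 was chosen with earlier results of these data known, so its count is a description and not independent support. Il10, whose expression named the 2 Treg labels, is on it. Of 25 Treg genes, 12 were higher in Treg cells than in the other labels by over 1.5-fold in both libraries and none lower, where 2.6% of the 17356 genes with enough fragments were higher and 4.65% lower. Their median log2 ratio, with a pseudocount of 1 FPM, was 0.59 for the cecum and 0.63 for the tumor, against -0.03 and -0.02 over all genes. Past 2-fold, 6 were higher and none lower, beside 0.91% and 1.6% of all genes. The 12 were the surface receptors Ctla4, Tnfrsf4, Icos, Nrp1, Lrrc32, Gpr83, Tigit, Il1rl1, Itgb8 and Ccr8, the cytokine Il10 and the signalling inhibitor Socs2. Lrrc32 had the highest log2 ratios, 2.04 and 2.23, followed by Itgb8, an integrin that activates TGF-β, at 1.86 and 1.82. Foxp3 had 1.59 and 1.52 on this scale and stood at rank 51 of 17356 by its smaller ratio. Spans here carry 5 kb on each side. For Foxp3, the shared upstream edge of that window held 76.0% (cecum) and 71.6% (tumor) of the other labels' fragments. No rank over spans alone is given. Il2ra, the interleukin-2 receptor alpha chain, had 0.28 and 0.26, Ikzf2, which encodes Helios, 0.27 and 0.57, and Itgae, the integrin CD103, 0.03 and -0.08. Swap70 had -0.67 and 0.07.

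Of 36 genes for regulators of Foxp3 transcription, none was higher and 1 lower past 1.5-fold, near the shares of 2.6% and 4.65% over all genes, with medians of -0.00 and -0.07. Past a difference of 25%, 2 were higher and 3 lower, beside 5.87% and 9.96% of all genes. The lower one was Nr4a2, a nuclear receptor induced by antigen receptor signals, at -1.62 and -1.0. Runx1, whose protein binds the Foxp3 elements with Cbfb, had log2 ratios of 0.34 and 0.14, Rel, an NF-κB subunit that acts through CNS3, 0.46 and 0.41, Stat5b, which carries interleukin-2 signals, -0.00 and -0.08, and Tgfbr2, a TGF-β receptor chain, -0.58 and -0.60. The 10 genes whose levels over the labels were most like those of Foxp3 were Arl5a, Ercc6, Jazf1, Cflar, Arhgef19, Gbp2b, Eif2ak3, Ube4b, Celf3 and Kcnk6. Of these 10, 1 remained among the 10 most alike when the flanks were left out and 2 with Spearman's correlation. The smaller Pearson r of the 2 libraries ran from 0.68 for Kcnk6 to 0.74 for Arl5a, over 16 labels in the cecum and 17 in the tumor that share a library and, by label, a depth. In each of the 10, the ratio of either Treg label to the other labels was smaller than for Foxp3, in both libraries. Jazf1, for instance, had 141 and 115 FPM in the IL-10+ and IL-10- Treg cells of the cecum against 66.3 in the other labels.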

How the data were processed

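T cells of AKP tumors and adjacent cecum were measured with the 10x multiome assay, and the ATAC files of 1 library per tissue were used. The authors made these files with Cell Ranger ARC 2.0.0 on mm10, per the file headers, and each deposited line holds 1 fragment, its barcode and a raw count of the read pairs behind it. Labels for each cell were deposited by the authors, who clustered the RNA of the same nuclei. All 15621 labelled barcodes were found, with 66.2% of the cecum fragments and 64.3% of the tumor fragments counted. Doublets were not called here, and any removal of them by the authors is not stated in the sources used here.

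A fragment on chromosomes 1 to 19, X and Y was counted once in a window that held either of its ends, then scaled per 1000000 fragments of its label. Gene spans were those of RefSeq on GRCm38.p6, the build of mm10, in a table without exons, so exon and intron are stated as background only. Intervals for levels are exact Poisson ones, for ratios exact conditional ones and for shares exact Clopper-Pearson ones, all at 95%, and a count of 0 was set to 3 for a bound. Variation between animals is not covered. The Foxp3 elements, gene lists, motifs and markers were chosen with earlier results of these data known. The named genes were Foxp3, its neighbours within 50 kb, the 10 most alike genes by Pearson r of log2(FPM + 1) over labels with at least 50 cells, and list members past 1.5-fold with up to 4 others. Lists used genes with at least 50 fragments in each library. Open regions were made by joining adjacent open tiles after their values were seen. Promoter sequences came from RefSeq (GRCm38.p6), where 2 promoters matched Foxp3. No genome sequence was used, so tiles outside the promoters are given without sequence. Ratios were tested on simulated counts, drawn from the Poisson model that the intervals assume, so coverage near 95% was built in. In the Treg over other comparison with 200 genes shifted by 1 on the log2 scale, intervals covered the true value for 93% of changed genes in the cecum (17362 genes) and 94.5% in the tumor (17859 genes). The simulation held no cells, so it cannot show how the intervals hold where fragments gather in the same cells. Alternatives changed windows, scaling, cells, counting, thresholds and tile grid. Counting used numba 0.67.0, statistics scipy 1.17.1, figures matplotlib 3.10.9 and tables pandas 2.3.3 and numpy 2.4.6, all in Python 3.11.15.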

Additional observations from a re-analysis of the deposited data

Results flagged for a closer look

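The log2 ratio of the IL-10+ over the IL-10- Treg label was compared between tissues at 5 fixed elements and 11 open regions. Its sign was opposite in the cecum and the tumor at 5 of these. The difference between the tissues was not tested. At the promoter the cecum value was 0.051 and the tumor value -0.29. The values were -0.025 and 0.33 in the CNS0 window, and -0.19 and 0.67 at CNS3. It was -0.31 and 0.31 in the shared tile at 7570501 to 7571000 and -0.32 and 0.17 in the shared tile at 7572501 to 7573000. All 10 of these ratios have intervals that include 0. The places are not all separate, since the tile at 7570501 overlaps the CNS0 window. Over the start region (7579001 to 7580000), which holds the promoter window, the values were -0.006 and -0.22, of the same sign.

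Barcodes without a cell label, which no comparison used, also had fragments at CNS2. Their level was 4.59 FPM for the cecum and 2.66 FPM for the tumor, above the 0.57 and 0.62 FPM of the labels other than Treg.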

How the results depend on the processing

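Each tissue has 1 library and no test was made, so nothing shows how far mice differ, and depth limits the labels with few cells most. No paired analysis was made, since each tissue has 1 library and the labels carry no replicate numbers. Whether the 2 libraries share mice is not stated in the sources used here, and the tumor over cecum ratios treat the tissues as unrelated. Of 284 alternative values for the summary results, 63 moved by more than their counting interval or by over 1.5 times as a count, 221 did not, and none reversed sign. Of 374 for single labels, 175 moved. The lists below give Foxp3 window levels of Treg and other cells in the cecum, then in the tumor. They were 86.2, 25.8, 58.7 and 20.02 FPM with fragments below nucleosome length alone, and 92.4, 26.1, 70.4 and 21.4 when both ends were counted. They were 59.5, 5.16, 43.1 and 4.68 over the span alone, 15.6, 3.01, 12.5 and 2.54 within 1 kb of the start, 272.8, 127.6, 221.6 and 110.9 with 50 kb on each side, and 68.5, 7.85, 49.9 and 7.48 from 4 kb before the start, a window added after seeing the data. The mean over cells gave 118.8 for cecum Treg cells, and leaving out cells above 3 times the median depth gave 35.1 for the other cecum cells.

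The log2 ratio of Treg over other cells in this window, in the cecum and then the tumor, was 1.82 and 1.72 with both ends, 3.53 and 3.20 over the span, 2.38 and 2.30 at the start, 1.10 and 1.0 with 50 kb, 3.13 and 2.74 from 4 kb before the start, and 1.42 and 1.40 against CD4+ labels. It was 1.79 in the cecum as a mean over cells. Against CD4+ labels the promoter ratio was 2.98 and 2.75 and the CNS2 ratio 4.76 and 4.02. The cecum promoter ratio was 1.78 with short fragments and 3.10 as a mean over cells. The tumor over cecum ratio was -0.70 for IL-10- Treg cells with short fragments, -0.62 for IL-10+ and -0.75 for IL-10- Treg cells as a mean over cells, and -0.11 for IL-10+ Treg cells with 50 kb. For the other labels it was -0.14 over the span, -0.20 with 50 kb and -0.070 from 4 kb before the start. The 5 Treg-restricted tiles became 9 at a fold of 2, 2 at a fold of 8 and 3 with short fragments, and the 7 shared tiles became 4 at 5 FPM and 4 with both ends. Of the 10 genes most like Foxp3, 1 was kept without flanks and 2 with Spearman correlation. At a fold of 2, 6 of 25 Treg genes were higher and 0 of 36 regulators lower, and past a difference of 25%, 2 regulators were higher and 3 lower. Beyond those set by a narrower or wider window, the cause of these changes was not tested.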
